A study of Mus musculus with 12 samples.

Results

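The 41 genes described here drive or mark cell division, and were followed in ear skin of C57BL/6 mice, where imiquimod cream causes a psoriasis-like dermatitis. They form a list of gene symbols that was chosen with earlier results of these data known. All 41 were found among the 55416 gene identifiers of the deposited tables. 16 of them act at the entry into or during S phase, and 25 act from late S phase to the end of mitosis. Bulk mRNA of whole ear skin was sequenced in 12 libraries, 3 in each of 4 groups, all collected on day 6 from mice of 8 to 12 weeks. In the UTX/Veh group (UTX is not spelled out) the mice received DMSO, the vehicle of both drugs. In the IMQ/Veh group, 20.8 mg of Aldara cream with 5% imiquimod was put on the back of the ears each day, and DMSO was injected. The IMQ/GW3965 group received the cream and, from day 3, daily intraperitoneal GW3965 at 20 mg/kg, which activates liver X receptors. The IMQ/Troglitazone group received the cream and troglitazone, an agonist of PPARγ, at 150 mg/kg on the same schedule. The labels do not say whether replicates are separate animals, and the p-values below therefore reflect spread among these libraries alone, which may be technical. In bulk tissue, more dividing cells and more of an RNA per dividing cell cannot be told apart.

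In a cell that enters the cycle, cyclin E with its kinase helps to release the E2F transcription factors from their pocket-protein inhibitors. E2F targets then supply the replication machinery: loaders such as Cdc6, the Mcm helicase ring, the Cdc45 and GINS helicase activators, the PCNA clamp and the enzymes that make deoxynucleotides. Later genes, among them cyclin B, Polo-like kinase 1, the Aurora kinases, the kinesins and the kinetochore proteins, are switched on by the MuvB complex with B-Myb and Foxm1 at short promoter elements, in particular the cell cycle homology region (CHR). In resting skin, dividing cells lie mainly in the basal layer of the epidermis and in the hair follicle.

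The promoters of 7 members, picked as examples, are shown first, since S phase and mitotic genes are known to differ in these elements. RefSeq promoter windows (GRCm38.p6, 250 bases before to 50 after the start) were used for 33 of the 41 members, as 34 windows, because Mcm7 has more than 1. The 7 stretches below end at or just before the annotated start, are written 5′ to 3′ on the gene's own strand, and carry in capitals each match of 3 motifs on either strand: CHR (TTTGAA or TTCGAA), the CCAAT box, and an E2F site (TTTGGCGC, TTTCCCGC, TTTCGCGC or TTTGCCGC). Capitals therefore also show the reverse complements, such as ATTGG for CCAAT. Cdk1 (minus strand, chr10:69352913-69353112), Cdc20 (minus, chr4:118437344-118437543) and Ube2c (plus, chr2:164769729-164769927) are examples of the mitotic class.
Cdk1: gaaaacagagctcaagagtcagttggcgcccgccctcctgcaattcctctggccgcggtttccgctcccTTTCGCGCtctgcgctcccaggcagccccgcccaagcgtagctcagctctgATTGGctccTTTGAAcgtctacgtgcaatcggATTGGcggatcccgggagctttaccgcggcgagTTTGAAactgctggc
Cdc20: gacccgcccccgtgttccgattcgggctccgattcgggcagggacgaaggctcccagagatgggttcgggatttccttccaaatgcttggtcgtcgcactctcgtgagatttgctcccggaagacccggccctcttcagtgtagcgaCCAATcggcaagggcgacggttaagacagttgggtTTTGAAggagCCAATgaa
Ube2c: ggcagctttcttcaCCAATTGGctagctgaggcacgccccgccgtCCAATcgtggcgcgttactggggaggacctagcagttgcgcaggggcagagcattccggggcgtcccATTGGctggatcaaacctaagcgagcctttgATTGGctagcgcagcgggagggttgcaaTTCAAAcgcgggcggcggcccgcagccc
Ccne1 (minus, chr7:38107505-38107690), Rrm2 (plus, chr12:24708054-24708253), Mcm5 (plus, chr8:75109309-75109508) and Mcm6 (minus, chr1:128359706-128359905) are examples of the S phase class.
Ccne1: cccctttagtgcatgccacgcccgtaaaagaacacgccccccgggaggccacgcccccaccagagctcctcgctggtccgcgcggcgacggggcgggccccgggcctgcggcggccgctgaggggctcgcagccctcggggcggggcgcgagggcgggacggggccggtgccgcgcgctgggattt
Rrm2: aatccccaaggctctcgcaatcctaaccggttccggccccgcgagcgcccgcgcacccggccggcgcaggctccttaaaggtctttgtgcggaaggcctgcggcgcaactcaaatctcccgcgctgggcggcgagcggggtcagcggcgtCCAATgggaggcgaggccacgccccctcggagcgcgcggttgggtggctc
Mcm5: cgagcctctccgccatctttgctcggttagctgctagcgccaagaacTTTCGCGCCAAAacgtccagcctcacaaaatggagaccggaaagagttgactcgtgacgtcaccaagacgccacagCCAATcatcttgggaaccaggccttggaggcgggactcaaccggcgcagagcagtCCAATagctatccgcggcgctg
Mcm6: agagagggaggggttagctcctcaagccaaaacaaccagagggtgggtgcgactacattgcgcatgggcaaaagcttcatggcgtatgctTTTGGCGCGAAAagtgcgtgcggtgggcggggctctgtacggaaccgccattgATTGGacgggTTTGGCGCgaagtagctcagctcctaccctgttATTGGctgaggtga
In Mcm5 and Mcm6 a run of capitals is a pair of E2F matches on opposite strands that share bases. Among all 34 windows, matches of different motifs shared bases in 2.

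Over the member windows used, a CHR match was present in 16 of 20 mitotic windows (80%) and in 3 of 14 S phase windows (21.4%), against 19.2% of all 32851 promoter windows in the RefSeq table. The shares leave out 8 members, the mitotic gene Kif20a among them, whose promoters were not examined. All 16 of those mitotic genes had a match within 100 bases before the start or after it. Every CHR match lay after the annotated start in the mitotic windows of Plk1 (base 31), Aurka (33), Ndc80 (30) and Bub1 (15). The same held for Cdca8 (14), Ttk (8), Cenpf (3) and Kif23 (3), while Bub1b and Ccnb2 had matches before and after the start. An E2F match was found in 5 of 14 S phase windows (35.7%), those of Cdc6, Mcm3, Mcm5, Mcm6 and Mcm7, in 1 of 20 mitotic windows (5%), that of Cdk1, and in 2.26% of all windows. CCAAT was common to both classes, with 10 of 14 and 17 of 20 windows against 37.4% overall. CHR and CCAAT were present together in 15 of 20 mitotic windows (75%), 3 of 14 S phase windows and 7.52% of all windows. These are matches of letters, given as a description. Ccne1, E2f1 and Tyms of the S phase class and Birc5 and Nusap1 of the mitotic class showed none of the 3 motifs in their windows.

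Total expected counts ran from 18242074 to 25641602 per library, and all 41 members passed the filter on low counts that left 17130 genes. Levels are CPM, counts divided by library size, after TMM scaling, which corrects that size for differences in RNA composition. A gene is called higher or lower at an adjusted p below 0.05 in edgeR's quasi-likelihood test, adjusted over all 17130 genes. The libraries were of keratinocyte-rich tissue: Krt5 stood between 4638 and 9840.4 CPM. The summed level of 8 basal keratinocyte markers was 12642 to 13877 CPM in UTX/Veh and 23612 to 31495 in IMQ/Veh, with Krt14 higher and Krt15 lower. Most of that sum was Krt14 and Krt5, at 13196 to 19525 and 7713.5 to 9840.4 CPM in IMQ/Veh. Of the 8 markers, 3 were called higher and 3 lower, with a median log2 fold change of -0.10. Neutrophil markers (8 genes, S100a8 and S100a9 the most abundant) summed to 19.6 to 36.01 CPM in UTX/Veh and 5741 to 10080.0 in IMQ/Veh, and leukocyte markers (14 genes) to 372 to 490.3 and 627 to 1284 CPM. The neutrophil markers other than S100a8 and S100a9 summed to 17.1 to 22.0 CPM in UTX/Veh and 98.5 to 104 in IMQ/Veh. Skeletal muscle markers (8 genes) went the other way, with 9061 to 10381 CPM in UTX/Veh and 1232 to 4781 in IMQ/Veh. Ms4a1 and Cd79a of B cells and Ly6g of neutrophils were near 0 in every library. The part of such shifts in cell content in the results below was not tested.

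Imiquimod with vehicle was compared with UTX/Veh to see which of these genes differ in the inflamed skin. Of the 41 members, 40 (97.6%) were higher in IMQ/Veh and none was lower, where 33.0% of all genes tested were higher and 28.9% lower. By class median the mitotic members had the larger fold change, which was 5.72 over the 25 mitotic genes (log2 2.52) and 2.22 over the 16 S phase genes (log2 1.15), beside a median log2 of 0.01 over all genes. All 25 mitotic members and 15 of the 16 S phase members were called. In all 25 and in 15 of 16 the 3 IMQ/Veh libraries lay above the 3 UTX/Veh libraries without overlap, the exception being Gins2. Over all genes tested, 34.7% lay above without overlap.

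**Figure D1:**
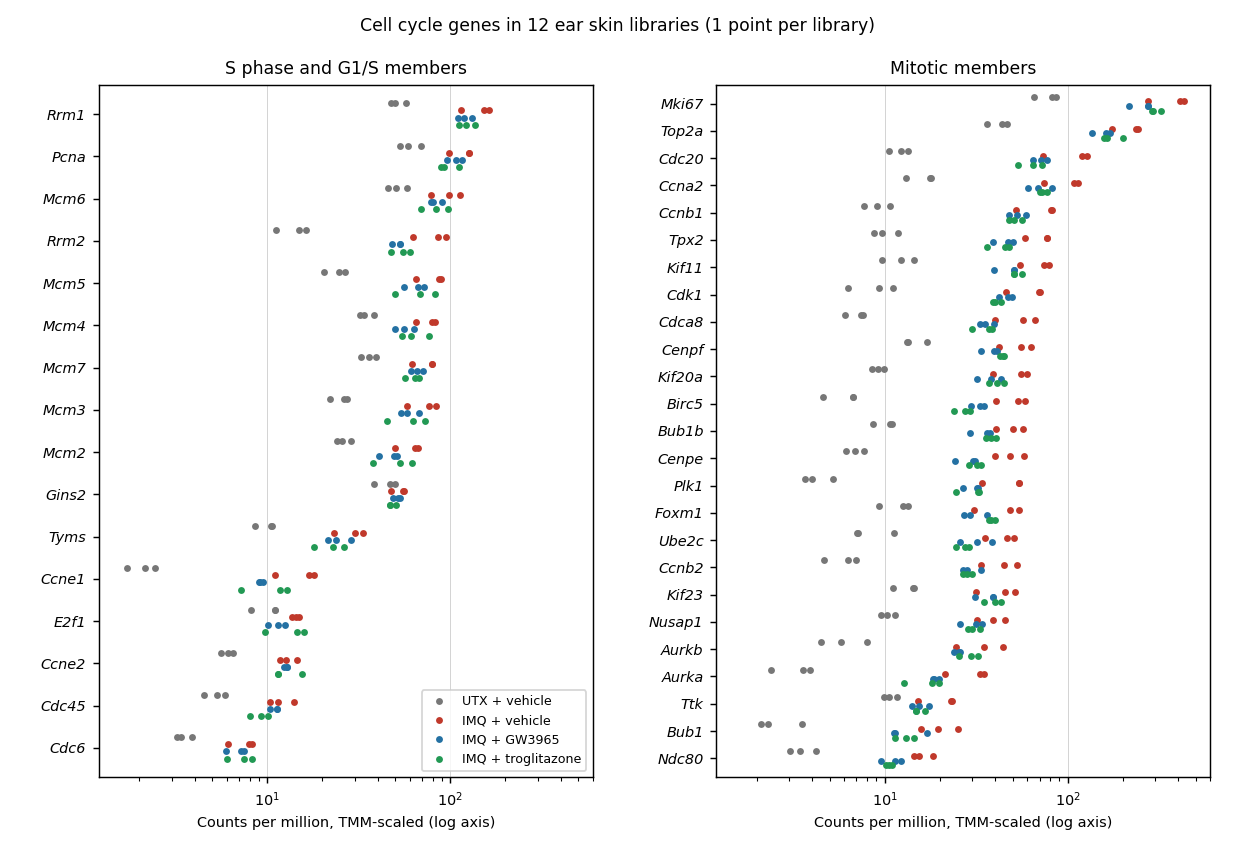
Each row is 1 of the 41 genes and each point 1 of 12 libraries, with TMM-scaled CPM on a log axis. Grey points (UTX/Veh) lie left of all others in nearly every row, and the gap is wider for the mitotic genes, with Gins2 and E2f1 as the S phase genes of smallest distance.

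Among the mitotic kinases, Plk1, which drives mitotic entry, spindle assembly and exit, stood at 4.01, 5.22 and 3.67 CPM in the UTX/Veh libraries and at 53.8, 53.9 and 33.95 CPM in the IMQ/Veh libraries. Its log2 fold change of 3.46 ± 0.21 (SE) was the largest of all 41 members (10.97-fold, adjusted p = 6.1e-07). The groups lay far apart, and the lowest IMQ/Veh library was replicate 3. Aurka, the centrosomal Aurora kinase, went from 3.58, 3.89 and 2.39 CPM to 33.3, 34.9 and 21.2 CPM (log2 3.18 ± 0.24). Aurkb, the kinase of the chromosomal passenger complex, rose by log2 2.51 ± 0.23, and its partners Birc5 (survivin) and Cdca8 (borealin) by 3.07 ± 0.17 and 2.96 ± 0.19. Cdk1, the kinase that triggers mitosis, was at 9.24, 11.1 and 6.32 CPM against 69.9, 70.6 and 45.9 CPM (log2 2.81 ± 0.21, adjusted p = 1.5e-06). Ttk, the Mps1 kinase of the spindle checkpoint, was the mitotic gene that moved least, from 10.5, 11.7 and 9.87 CPM to 22.9, 23.2 and 15.3 CPM (log2 0.94 ± 0.16, adjusted p = 3.6e-04).

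The cyclins that bind Cdk1 rose together. Ccnb1 was at 9.08, 10.7 and 7.69 CPM in UTX/Veh and at 81.8, 80.5 and 52.1 CPM in IMQ/Veh (log2 2.96 ± 0.18, adjusted p = 6.5e-07). Ccnb2 rose by log2 2.87 ± 0.19 and Ccna2, the cyclin of S phase and G2, by 2.61 ± 0.18. Reads of Ccnb1 and Ccnb2 may be shared with processed pseudogenes named for them, and those of Ccna2 with Exosc9 on the opposite strand, so their values are less certain. The destroyers of these cyclins rose as well: Cdc20, the activator of the anaphase-promoting complex, from 12.1 ± 1.46 to 107 ± 29.1 CPM (SD, n = 3, log2 3.14 ± 0.20), and Ube2c, the ubiquitin-conjugating enzyme of that complex, by log2 2.38 ± 0.21. Cdc20 overlaps Elovl1, and Ube2c overlaps the muscle troponin gene Tnnc2, on the opposite strand. Whether the counting used strand is not given in the sources used here.

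Spindle and kinetochore genes rose as well. Cenpe, the kinetochore kinesin, went from 6.17, 6.90 and 7.69 CPM to 57.3, 48.2 and 40.2 CPM, with no overlap (log2 2.81 ± 0.15, adjusted p = 3.9e-07). Bub1 and Bub1b, checkpoint proteins at the kinetochore, rose by log2 2.92 ± 0.25 and 2.29 ± 0.15, and Ndc80, which holds the microtubule end, by 2.17 ± 0.16. Cenpf, a large kinetochore protein, rose by 1.89 ± 0.15. Of the spindle motors and their partners, Tpx2, which activates Aurka on microtubules, rose by 2.81 ± 0.17, Kif11, which pushes the poles apart, by 2.52 ± 0.17, Kif20a and Kif23, kinesins of the midzone and of cytokinesis, by 2.48 ± 0.17 and 1.69 ± 0.18, and Nusap1, a microtubule binder, by 1.90 ± 0.15. Kif23, Cenpf and Nusap1 had the smallest values among these.

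The proliferation marker Mki67, which coats mitotic chromosomes, was at 81.96, 85.9 and 65.2 CPM in UTX/Veh and at 408, 433 and 274 CPM in IMQ/Veh (log2 2.26 ± 0.18, adjusted p = 2.1e-06). Top2a, the topoisomerase that untangles sister chromatids, was at 43.4, 46.2 and 36.2 and 242, 235 and 174 CPM (log2 2.37 ± 0.15). In both genes the highest UTX/Veh value was below the lowest IMQ/Veh value. Foxm1, the transcription factor of the mitotic programme, was at 13.4, 12.5 and 9.27 CPM and 48.3, 54.1 and 30.8 CPM (log2 1.92 ± 0.20). Its locus overlaps Gm44596 and Tex52 on the same strand.

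Among the S phase genes, the E-type cyclins had unequal fold changes. Ccne1 had the largest rise of the class, from 2.44, 1.71 and 2.14 CPM to 16.8, 18.1 and 10.97 CPM (log2 2.86 ± 0.26, adjusted p = 4.8e-06). Ccne2 went from 6.49, 6.10 and 5.60 CPM to 12.6, 14.6 and 11.7 CPM (log2 1.10 ± 0.15, adjusted p = 6.8e-05). Both were called, and Ccne2, whose locus overlaps Ints8 on the opposite strand, moved about as far as the class median. E2f1, a transcription factor that cyclin E helps to free, was at 11.01, 11.1 and 8.12 CPM and 13.6, 14.9 and 14.3 CPM (log2 0.50 ± 0.18, adjusted p = 0.0316). That rise depended on the scale: E2f1 was at 6.98 ± 1.10 TPM (a length-corrected share of all transcripts) in UTX/Veh and 6.81 ± 0.630 in IMQ/Veh, and on counts scaled to basal keratinocyte markers its log2 fold change was -0.50. The E2f1 call was lost in 10 of 28 alternative settings, among them a lane term and leaving out single libraries such as UTX/Veh replicate 3.

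Most genes of the replication machinery rose by less than the mitotic median of 2.52 (log2), with the helicase subunits between 0.91 and 1.75. Mcm2, a subunit of the helicase ring, stood at 25.4, 28.7 and 24.1 CPM against 63.9, 66.96 and 50.01 CPM (log2 1.21 ± 0.17, adjusted p = 1.2e-04). The other ring subunits rose by log2 1.54 ± 0.18 (Mcm3), 1.12 ± 0.15 (Mcm4), 1.75 ± 0.19 (Mcm5), 0.91 ± 0.15 (Mcm6) and 1.04 ± 0.12 (Mcm7, which overlaps Ap4m1 and Cops6). The loader Cdc6 rose by 1.09 ± 0.18 and the helicase activator Cdc45, which overlaps Ufd1, by 1.18 ± 0.16. Gins2, a subunit of the GINS complex that joins Cdc45 on the helicase, was at 50.0008, 46.9 and 38.1 CPM and 55.5, 55.1 and 47.6 CPM. Its groups overlapped and it was not called (log2 0.23 ± 0.11, adjusted p = 0.0771), and its TPM value was lower in IMQ/Veh (18.9 ± 0.741) than in UTX/Veh (23.1 ± 3.21, SD, n = 3). Gins2 lies opposite Gse1, with which its reads cannot be separated if strand was not used.

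Pcna, the sliding clamp of the DNA polymerases, was at 58.7, 68.8 and 53.02 CPM and 126, 127 and 98.3 CPM (log2 0.96 ± 0.13, adjusted p = 9.9e-05). The enzymes that make deoxynucleotides had larger fold changes than the clamp. Rrm2, the regulated small subunit of ribonucleotide reductase, went from 14.8, 16.2 and 11.2 CPM to 94.6, 85.4 and 62.5 CPM (log2 2.52 ± 0.17, adjusted p = 1.1e-06), while its large subunit Rrm1 rose by log2 1.48 ± 0.14. Tyms, thymidylate synthase, rose by 1.55 ± 0.18. Rrm2 and Ccne1 were the only S phase members whose log2 fold change was at least the mitotic median of 2.52, and Mcm5 (1.75) lay above the mitotic gene Kif23 (1.69). Pcna and Tyms have processed pseudogenes named for them.

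The scale decided the sign of some S phase members. In a limma fit of log2(TPM + 0.5) the median of all genes was -0.46 in IMQ/Veh against UTX/Veh, and 14 of 16 S phase and 25 of 25 mitotic members had a positive fold change. Counts were also scaled to the sum of the 8 basal keratinocyte markers, most of which is Krt14 and Krt5. All genes then had a median of -1.01, the S phase class 0.13 and the mitotic class 1.52. Such a scaling moves all genes by nearly the same amount, so the distance between the classes is not an independent result there. On the basal keratinocyte scale 12 of 16 S phase and 24 of 25 mitotic members had a positive fold change. Over all genes, 5646 were called higher and 4951 lower on TMM-scaled counts, 3548 and 6977 with library totals alone, 2192 and 8842 on TPM, and 1046 and 12383 on the basal keratinocyte scale.

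To set S phase against mitotic genes within a library, the mean log2(CPM + 0.5) of each class was taken. The S phase mean was 4.14 ± 0.14 in UTX/Veh, 5.41 ± 0.21 in IMQ/Veh, 5.15 ± 0.11 in IMQ/GW3965 and 5.15 ± 0.23 in IMQ/Troglitazone (SD, n = 3). The mitotic mean rose from 3.30 ± 0.20 in UTX/Veh to 5.73 ± 0.31 in IMQ/Veh, and was 5.23 ± 0.15 in IMQ/GW3965 and 5.25 ± 0.11 in IMQ/Troglitazone (SD, n = 3). The difference, S phase minus mitotic, was 0.85, 0.78 and 0.91 in the UTX/Veh libraries, -0.39, -0.37 and -0.20 in IMQ/Veh, -0.03, -0.20 and -0.02 in IMQ/GW3965 and -0.09, 0.02 and -0.23 in IMQ/Troglitazone. The 3 UTX/Veh libraries lay above all 9 others by a wide margin. Scaling a library up or down moves both classes alike and so leaves this difference nearly as it is.

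The group means of the difference were 0.85 ± 0.06 in UTX/Veh, -0.32 ± 0.10 in IMQ/Veh, -0.08 ± 0.10 in IMQ/GW3965 and -0.10 ± 0.13 in IMQ/Troglitazone. Between IMQ/Veh and UTX/Veh it shifted by -1.17, with -1.18 and -1.20 within the libraries of file-name lanes L001 and L009. The drug groups lay 0.24 (GW3965) and 0.22 (troglitazone) above IMQ/Veh, but IMQ/Veh replicate 3, at -0.20, lay inside the range of IMQ/Troglitazone and next to the lowest IMQ/GW3965 library, also at -0.20. Within lanes L001 and L009 the drug shifts were 0.34 and 0.10 with GW3965 and 0.21 and 0.32 with troglitazone. No test was run on these class means, since the genes were grouped with results known.

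**Figure D2:**
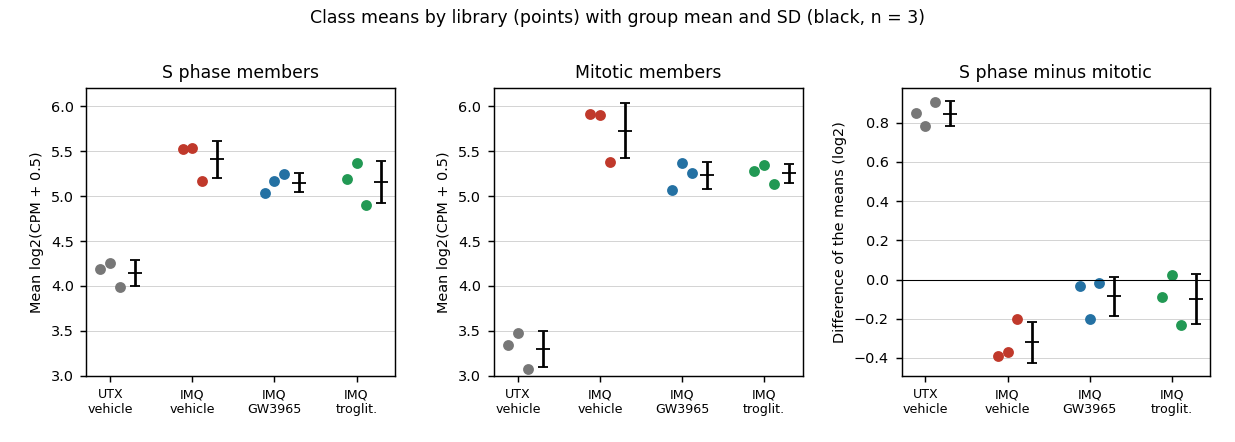
Points are libraries, with the class mean of log2(CPM + 0.5) on the vertical axis of the first panels and the S phase minus mitotic difference in the last, and black marks give the group mean and SD (n = 3). UTX/Veh sits near 0.85 in the last panel and the imiquimod groups at or below 0.02.

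Levels can be compared between genes per transcript length, in TPM. In UTX/Veh skin Pcna was by far the most abundant member (82.8 ± 8.80 TPM, SD, n = 3), ahead of Mcm7 (33.1 ± 1.88), Mcm6 (32.9 ± 4.16) and Rrm1 (31.5 ± 4.01), all S phase genes. Top2a was the most abundant mitotic gene there, at 22.2 ± 2.28 TPM, and Cenpe, Ccne1, Bub1 and Cdc6 were the lowest, at 2.13, 2.18, 2.82 and 2.87 TPM. In IMQ/Veh skin Pcna (110.3 ± 13.9 TPM) was followed by the mitotic genes Top2a (88.01 ± 12.2), Cdc20 (84.9 ± 23.3) and Cdk1 (80.3 ± 17.1), which did not differ from each other beyond their SDs. Cdc6, E2f1 and Ccne2 were then the lowest members, at 3.63, 6.81 and 6.94 TPM. The order thus passed from S phase genes at the top to mitotic genes near the top.

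Other genes of the cycle also rose with imiquimod, where 33.0% of all genes tested were higher and 28.9% lower. Their lists of pathway members were chosen with earlier results of these data known, so they give no independent support. Of 40 further replication genes, 38 were higher in IMQ/Veh and none lower (median log2 1.07), led by Dbf4, the activator of the Cdc7 kinase (2.69 ± 0.15), Mcm10 (2.66 ± 0.21) and the licensing inhibitor Gmnn (2.12 ± 0.15). Of 46 further mitotic genes, 45 were higher and none lower (median log2 2.34), led by Ska1 (3.11 ± 0.23), Kif2c (3.00 ± 0.16) and the centromeric histone Cenpa (2.85 ± 0.16). Medians of both lists lay near those of the member classes.

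Regulators of the cycle were mixed: of 28 tested, 16 were higher and 5 lower, where 33.0% of all genes were higher and 28.9% lower. The repressive E2F factors E2f7 and E2f8 (3.38 ± 0.37 and 2.58 ± 0.22) and Mybl2, which is B-Myb of the MuvB complex (2.28 ± 0.28), rose most. Ccnd2, a G1 cyclin, fell from 381 to 92.6 CPM (log2 -2.04 ± 0.24), and Tfdp2 and the pocket protein Rbl2 by log2 -0.99 ± 0.19 and -0.87 ± 0.15. Of 6 CDK inhibitors tested, Cdkn2d and Cdkn1a were higher (0.82 ± 0.14 and 0.49 ± 0.08) and Cdkn1c, Cdkn1b and Cdkn2b were lower. Cdkn1c, the p57 inhibitor, fell most, from 33.3 to 6.08 CPM (log2 -2.45 ± 0.26, adjusted p = 1.4e-05).

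GW3965 was compared with vehicle in imiquimod-treated skin. All 41 members had a negative log2 fold change on TMM-scaled counts, but only 5 (12.2%) were called lower and none higher, where 2.88% of all genes were lower and 3.71% higher. The 5 were Cenpe, Rrm2, Tpx2, Birc5 and Bub1b. Median log2 fold changes were -0.53 for mitotic and -0.25 for S phase members, beside -0.01 for all genes. The 3 IMQ/GW3965 libraries lay below all 3 IMQ/Veh libraries in 12 of 25 mitotic and 4 of 16 S phase members, against 12.0% of all genes tested.

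Cenpe was at 57.3, 48.2 and 40.2 CPM in IMQ/Veh and 24.3, 30.9 and 30.1 CPM in IMQ/GW3965, the largest fall of the class (log2 -0.77 ± 0.14, adjusted p = 0.0165). Rrm2 was at 94.6, 85.4 and 62.5 CPM and 48.2, 53.3 and 53.3 CPM (log2 -0.65 ± 0.16, adjusted p = 0.0391), and was the only S phase gene called. In both genes every drug library was below every vehicle library. Tpx2, Birc5 and Bub1b fell by log2 -0.64 ± 0.15, -0.64 ± 0.16 and -0.53 ± 0.14 (adjusted p = 0.0327, 0.0369 and 0.0491). Ccne1 had a larger fold change than Rrm2 but missed the threshold, with 16.8, 18.1 and 10.97 CPM in IMQ/Veh and 9.09, 9.46 and 9.06 CPM in IMQ/GW3965 (log2 -0.73 ± 0.23, adjusted p = 0.0753).

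Mki67 was at 216, 276 and 274 CPM in IMQ/GW3965, overlapping IMQ/Veh replicate 3 (log2 -0.54 ± 0.17, adjusted p = 0.0709). Values for Top2a were 136, 169.5 and 161 CPM, below all IMQ/Veh values but not called (adjusted p = 0.0686). Plk1 and Aurka, at 26.8, 32.2 and 32.03 and 18.3, 19.7 and 18.7 CPM, were not called either (adjusted p = 0.0618 and 0.0836). The members with the smallest differences were Ccne2 (12.8, 12.3 and 12.8 CPM, log2 -0.04 ± 0.14) among S phase genes and Kif23 (31.2, 38.9 and 38.8 CPM, log2 -0.24 ± 0.17) among mitotic genes. Cdk1, Ccnb1, Mcm2, Pcna and E2f1 had log2 values of -0.43 ± 0.19, -0.43 ± 0.17, -0.36 ± 0.17, -0.14 ± 0.13 and -0.34 ± 0.18, none called.

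Troglitazone was compared with the same IMQ/Veh libraries, so the comparisons with GW3965 and with troglitazone share their controls. All 41 members had a negative log2 fold change on TMM-scaled counts, and 11 (26.8%) were called lower and none higher, where 4.65% of all genes were lower and 4.69% higher. The 10 mitotic genes called were Birc5, Aurka, Cdc20, Ube2c, Tpx2, Plk1, Ccnb2, Cenpe, Cdca8 and Ndc80, and the S phase gene was again Rrm2. Median log2 fold changes were -0.47 for mitotic and -0.24 for S phase members, beside -0.02 for all genes. The 3 IMQ/Troglitazone libraries lay below all 3 IMQ/Veh libraries in 13 of 25 mitotic and 2 of 16 S phase members, against 14.0% of all genes tested.

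Birc5 was at 53.1, 57.9 and 40.6 CPM in IMQ/Veh and 29.2, 27.4 and 23.8 CPM in IMQ/Troglitazone, the largest fall of the 41 (log2 -0.92 ± 0.16, adjusted p = 0.0118). Aurka was at 17.99, 19.8 and 12.8 CPM, below every IMQ/Veh value (log2 -0.82 ± 0.22, adjusted p = 0.0381). The anaphase genes Cdc20 and Ube2c fell by log2 -0.75 ± 0.19 and -0.72 ± 0.20, and Plk1, at 32.7, 32.1 and 24.3 CPM, by -0.67 ± 0.19 (adjusted p = 0.0468). Rrm2 was at 54.98, 59.9 and 47.1 CPM (log2 -0.58 ± 0.16, adjusted p = 0.0464). Genes not called included Mki67 at 291, 322 and 288 CPM and Top2a at 164, 199.7 and 158 CPM, both overlapping IMQ/Veh replicate 3 (log2 -0.31 ± 0.17 and -0.32 ± 0.15).

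Cdk1 lay below all IMQ/Veh values, at 40.2, 42.9 and 39.1 CPM, but missed the threshold (adjusted p = 0.0636), and Ccne1 spread from 7.22 to 12.8 CPM and overlapped IMQ/Veh (log2 -0.53 ± 0.23). Ccne2 and Kif23 again had the smallest differences of their classes, with log2 values of -0.03 ± 0.14 and -0.12 ± 0.17. Ccnb1, Mcm2, Pcna, E2f1 and Foxm1 had log2 values of -0.47 ± 0.17, -0.25 ± 0.17, -0.26 ± 0.13, -0.09 ± 0.18 and -0.21 ± 0.19, none called.

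**Figure D3:**
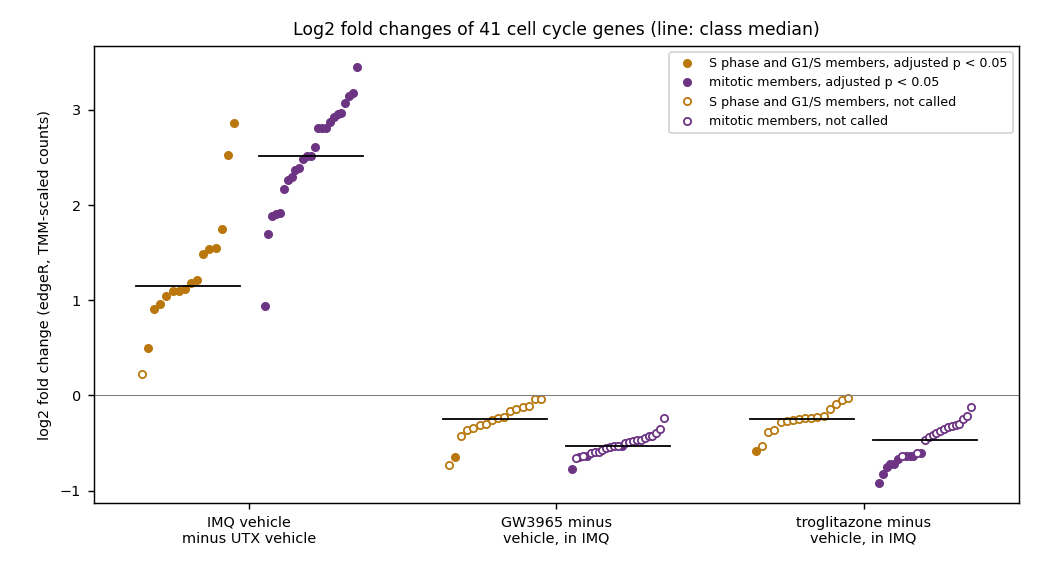
Each point is 1 gene, with its log2 fold change on the vertical axis, filled where the adjusted p is below 0.05, and lines mark class medians. The imiquimod medians are 1.15 for S phase and 2.52 for mitotic genes, and those of both drugs lie between -0.24 and -0.53.

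These drug results rest on few libraries and on the scale. IMQ/Veh replicate 3 was the lowest IMQ/Veh library for 39 of 41 members, and it was also the IMQ/Veh library with the most skeletal muscle marker counts (4781 CPM against 1257 and 1232) and the most fibroblast marker counts (9251 against 4116 and 1877). Its leukocyte markers were also the highest (1284 CPM against 981 and 627). Its neutrophil marker sum was the lowest (5741 CPM against 9549 and 10080.0), but nearly all of that sum is S100a8 and S100a9, and the other 6 neutrophil markers summed to 104 CPM there against 98.7 and 98.5.

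Without IMQ/Veh replicate 3, 27 members were lower with GW3965 and 27 with troglitazone, where 8.49% and 11.2% of all genes were lower. Without IMQ/Veh replicate 1 none was, where 0.291% and 0.354% of all genes were lower. Without IMQ/GW3965 replicate 1 none was lower with GW3965 (0.16% of all genes), and without IMQ/Troglitazone replicate 3 only Birc5 was lower with troglitazone (0.684%). Leaving out any other single library gave 1 to 5 members with GW3965 and 2 to 9 with troglitazone. The number of calls thus moved over all genes and not only among the members. A fit of only the 2 groups compared called none of the members in either comparison, with 0.242% of all genes lower with GW3965 and no gene called with troglitazone, while the mitotic medians were -0.51 and -0.47. With a lane term, 2 and 4 members were lower, where 1.32% and 2.95% of all genes were. Rrm2, Tpx2 and Bub1b then lost their call with GW3965. With library totals and no scaling factor, 10 and 3 members were lower, where 3.57% and 2.25% of all genes were. With counts scaled to basal keratinocyte markers none was, where 0.806% and 0.905% of all genes were. Over all genes, 635 were higher and 494 lower with GW3965 on TMM-scaled counts, and 315 and 612 on library totals. For troglitazone these were 803 and 797, and 650 and 386.

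On the basal keratinocyte scale the median of all genes stood at 0.23 (GW3965) and 0.43 (troglitazone), the S phase medians were -0.01 and 0.20, and the mitotic medians -0.28 and -0.01. In the limma fit of log2(TPM + 0.5), all 41 members had a negative fold change with GW3965, but with troglitazone 8 of 16 S phase and 20 of 25 mitotic members did, where the median of all genes was 0.22 (log2). Neutrophil markers were at 271 to 2016 CPM with GW3965 and 384 to 1962 CPM with troglitazone, and skeletal muscle markers at 5174 to 7257 and 3764 to 5633 CPM. Without S100a8 and S100a9, the neutrophil markers summed to 28.3 to 54.8 and 36.2 to 62.8 CPM, beside 98.5 to 104 in IMQ/Veh. Basal keratinocyte markers were at 20529 to 24333 and 16901 to 21692 CPM. The part of these shifts in the levels of the members was not tested. Within lanes, the mitotic mean lay below IMQ/Veh by 0.74 (L001) and 0.28 (L009) with GW3965 and by 0.70 and 0.30 with troglitazone, and the S phase mean of troglitazone changed sign, with -0.49 in L001 and 0.02 in L009. Each lane holds 1 or 2 libraries a group.

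**Figure D4:**
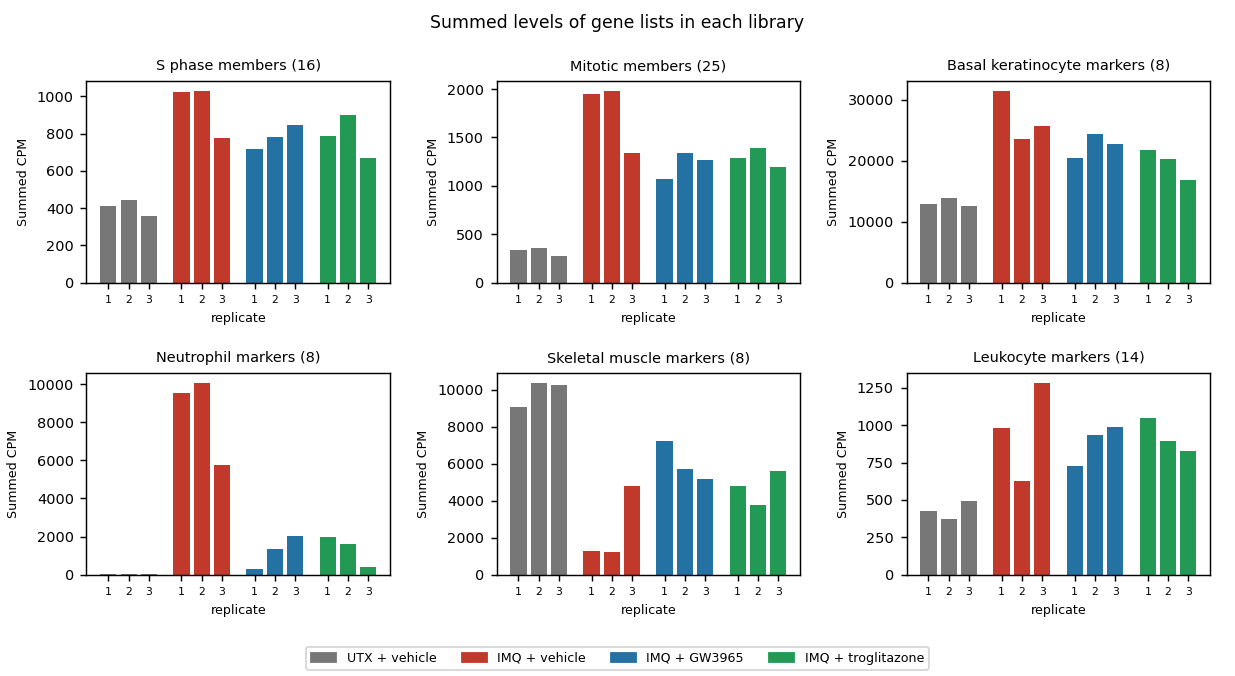
Bars give the summed TMM-scaled CPM of each gene list in each library, from 0, coloured by group and numbered by replicate. IMQ/Veh replicate 3 has 1339 CPM of mitotic members, beside 1951 and 1984 in the other IMQ/Veh libraries, and more muscle marker counts than either.

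Some genes of the other lists were called in the drug groups, where 2.88% of all genes were lower with GW3965 and 4.65% with troglitazone. Among the 40 further replication genes, those called lower with GW3965 included Gmnn, Mcm10 and Dbf4, and 2 were lower with troglitazone, Gmnn and Dbf4. Of the 46 further mitotic genes 7 and 10 were lower, and none of either list was higher. Ska1, a kinetochore protein, and Cenpa fell in both (Ska1 log2 -0.84 ± 0.20 and -0.98 ± 0.20, Cenpa -0.71 ± 0.15 and -0.87 ± 0.15). Among regulators, Cdk6, a partner of the D-type cyclins, fell with both drugs (-0.58 ± 0.14 and -0.55 ± 0.14), and E2f8 with GW3965 (-1.02 ± 0.21, adjusted p = 0.0211). Cdkn1c was the CDK inhibitor called with either drug: its mean was 20.5 ± 4.23 CPM with GW3965 and 20.6 ± 3.29 CPM with troglitazone, against 6.08 in IMQ/Veh (log2 1.75 ± 0.26 and 1.76 ± 0.26, adjusted p = 0.00644 and 0.00716).

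The drugs were also compared directly, as agonists of different receptors at different doses. None of the 41 members was higher or lower with GW3965 than with troglitazone, where 1.08% of all genes were higher and 0.782% lower, and none had an unadjusted p under 0.05. Class medians were -0.03 (S phase) and 0.02 (mitotic). Log2 differences, GW3965 minus troglitazone, ran from -0.32 ± 0.20 for Foxm1 to 0.28 ± 0.16 for Birc5. Foxm1 was at 26.99, 36.1 and 29.3 CPM with GW3965 and 39.9967, 38.1 and 36.9 with troglitazone. Birc5 was at 29.6, 32.9 and 35.01 CPM with GW3965 and 29.2, 27.4 and 23.8 CPM with troglitazone. Both genes are the extremes of the 41 in this comparison, and neither was called. The smallest differences were those of Mcm6 (-0.01 ± 0.15) and Nusap1 (-0.00 ± 0.14), and Cdc45 and E2f1 had the largest of the S phase class (0.27 ± 0.15 and -0.24 ± 0.18). With SEs of this size, a small difference in either direction could not be told from 0.

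Against UTX/Veh, most members were higher in the drug-treated imiquimod skin. In IMQ/GW3965, 39 (95.1%) were higher and none lower, where 28.7% of all genes were higher and 21.5% lower. In IMQ/Troglitazone the numbers were also 39 (95.1%) and none, where 26.5% of all genes were higher and 18.8% lower. E2f1 and Gins2 were the members not called in either (adjusted p = 0.478 and 0.157 with GW3965, 0.0869 and 0.495 with troglitazone). Both comparisons use the UTX/Veh libraries.

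Median log2 fold changes were 2.04 (GW3965) and 2.15 (troglitazone) for mitotic members, and 1.02 and 1.01 for S phase members. Plk1 had log2 values of 2.82 ± 0.21 and 2.79 ± 0.21, Ccnb1 2.54 ± 0.18 and 2.49 ± 0.18, Ccne1 2.13 ± 0.25 and 2.33 ± 0.25, Rrm2 1.87 ± 0.17 and 1.94 ± 0.17, and Pcna 0.82 ± 0.13 and 0.70 ± 0.13. In all 41 members, UTX/Veh had the lowest and IMQ/Veh the highest mean on TMM-scaled counts, with both drug groups between them. The share of all genes with this order was not counted. Both drug groups are set against the same IMQ/Veh libraries, and the members vary together. The order also depended on the scale. In the limma fit on TPM, 8 S phase and 5 mitotic members had a positive fold change with troglitazone against IMQ/Veh, and 8 and 20 a negative one.

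Members varied together among the replicates of a group. UTX/Veh replicate 3 was the lowest of its group for 39 of 41 members, IMQ/GW3965 replicate 1 for 37 and IMQ/Troglitazone replicate 3 for 34. UTX/Veh replicate 2 and IMQ/Troglitazone replicate 2 were each the highest of their group for 32. The members of a list are thus not independent measurements of a group.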

How the data were processed

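The authors' deposited tables give, for each gene and library, an RSEM expected count (an estimated number of reads, not normalized) and TPM, which the authors normalized for gene length and library. Per the submitters' processing notes, the tools were FastQC, Trim Galore, STAR 2.7.3a and RSEM 1.3.3, with the builds GRCm38 and mm10. For the annotation release and the strand setting nothing is given in the sources. Libraries were made with a stranded mRNA kit, per the labels' protocols. Of 55416 identifiers, 52135 carried a symbol, from the reference tables, and GENCODE M21 gave positions and overlaps.

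Expected counts were rounded, filtered with filterByExpr by group (17130 genes left), scaled by TMM and fitted in 1 edgeR 4.0.16 quasi-likelihood model of all 12 libraries (R 4.3.3, 8 residual degrees of freedom, common dispersion 0.0306). 6 comparisons were tested, with Benjamini-Hochberg adjustment over all genes tested and a threshold of 0.05. The SE of a log2 fold change was its size divided by the square root of the F value. Class means used log2(CPM + 0.5). The script was tested on simulated data. Replicate numbers met the test for pairing (deviations of all 3 same-numbered pairs correlated at over 0.1) only between IMQ/Veh and IMQ/Troglitazone (r 0.116 to 0.283). Replicates differed by more than sampling noise (lowest chi-square per degree of freedom 8.42). The depth of 18242074 to 25641602 counts sets the counting error, which TMM-scaled levels carry too.

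The members and gene lists were chosen with earlier results of these data known. All 41 members may be named; values per library are given for Mki67, Top2a, Cdk1, Ccnb1, Plk1, Mcm2, Pcna, the E cyclins, E2f1, Foxm1 and, per class and comparison, the genes with the largest and smallest fold changes. From other lists, the genes called with the largest fold change at a mean of at least 1 CPM are named. Alternatives were DESeq2 1.42.0, limma-voom (limma 3.58.1), other scalings and filters, a lane term, a replicate block, leaving out features or libraries, and, chosen after seeing the data, scaling to basal keratinocyte markers, library totals without a scaling factor, limma on log2(TPM + 0.5), and leaving out muscle, cartilage, adipocyte and erythrocyte genes. 1 feature held 11.6% of the counts of IMQ/GW3965 replicate 3, and leaving it out was an alternative too. Promoter sequences are from RefSeq, build GRCm38.p6. 1 result for a gene of the other lists is not reported here.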

Additional observations from a re-analysis of the deposited data

How the results depend on the processing

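Across 28 alternatives, between 30 and 41 members were higher in IMQ/Veh than in UTX/Veh, 30 to 39 in IMQ/GW3965 and 30 to 40 in IMQ/Troglitazone. 30, 29 and 30 members kept their call and sign in every one of these alternatives. The counts of members lower with the drugs than with vehicle depended on the processing. With GW3965 (5 members) they were 17 by DESeq2, 9 without a filter on low counts, 0 when only the 2 groups compared were fitted, 2 with a lane term and 10 on library totals. Of all genes, 6.12%, 1.83%, 0.242%, 1.32% and 3.57% were lower there. With troglitazone (11 members) they were 0 with only the groups compared, 4 with a lane term, 3 on library totals and 2 by limma on log2 TPM. The shares of all genes were 0%, 2.95%, 2.25% and 1.2%. Leaving out 1 library gave 0 to 27 members in each comparison, where 0.16% to 8.49% (GW3965) and 0.354% to 11.2% (troglitazone) of all genes were lower. Leaving out IMQ/Veh replicate 3 and IMQ/GW3965 replicate 3 together gave 25 and 27, beside 6.12% and 9.59% of all genes. None of the 5 or 11 calls held in every alternative. The cause was not tested.

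Scaled to basal keratinocyte markers, 0 members were lower with either drug. There 2, 2 and 1 members were lower than UTX/Veh in IMQ/Veh, IMQ/GW3965 and IMQ/Troglitazone, where 72.3%, 63% and 50% of all genes were. Of the members called, signs then turned in IMQ/Veh for E2f1 (-0.50), Mcm6 (-0.10), Pcna (-0.053) and Ttk (-0.082), in IMQ/GW3965 for Mcm4 (-0.084), Mcm6 (-0.087) and Ttk (-0.22), and in IMQ/Troglitazone for Ttk (-0.042), where the median of all genes was -1.01, -0.78 and -0.56. Of those not called, Gins2 turned to -0.79, -0.59 and -0.47 in the 3 groups, and E2f1 to -0.61 and -0.18 in IMQ/GW3965 and IMQ/Troglitazone. By limma on log2 TPM, E2f1 turned to -0.027 in IMQ/Veh and Ttk to -0.038 in IMQ/GW3965, Gins2, not called, to -0.28, -0.39 and -0.14 in the 3 groups, and E2f1 to -0.38 in IMQ/GW3965. There 1 member was lower in IMQ/GW3965 than in UTX/Veh, and 1 lower with GW3965 than with troglitazone, where 53.8% and 8.38% of all genes were. With upper-quartile scaling the median of all genes in IMQ/Veh against UTX/Veh moved to -0.11.

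The S phase minus mitotic shift against UTX/Veh ran from -1.23 to -0.90 in IMQ/Veh (main -1.17), and the median over members in place of the mean gave -0.90, -0.72 and -0.78 in IMQ/Veh, IMQ/GW3965 and IMQ/Troglitazone. Against IMQ/Veh it was 0.18 to 0.30 with GW3965 and 0.12 to 0.29 with troglitazone over the alternatives run, which leave out the within-lane values.

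Same-numbered libraries of different groups had correlated deviations (r over 0.1) in 6 of 18 pairs, from -0.254 to 0.397: in 3 of 3 pairs between IMQ/Veh and IMQ/Troglitazone, and in none between IMQ/Veh and IMQ/GW3965. With a replicate block, 12 members were lower with troglitazone, including all 11, where 4.63% of all genes were. With GW3965, where the numbers do not pair the libraries, 13 were, including all 5, beside 3.47% of all genes. Counting error is largest, relative to the level, for Ccne1, Bub1, Aurka and Cdc6, which had the lowest levels in UTX/Veh.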
